A study of Mus musculus with 4 samples.

Results

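The comparison described here set the spleens of 5 days old female mice whose dams had received carbon black nanoparticles (CB-NP) against the spleens of female mice whose dams had received distilled water. Genes were chosen by measurement alone: 14076 of the 20284 genes that could be matched to RefSeq were called well above background in the control and in the CB-NP pool of the females, and all of them were used. The animals were of the outbred ICR strain. CB-NP was given to pregnant dams by intranasal instillation at 95 microg per kg each time, on gestational days 5 and 9, and the control dams received distilled water at 1 mL per kg on the same schedule. The offspring themselves were not instilled, so all groups share a maternal instillation and differ in what was instilled. RNA of each sex and treatment was pooled, and each of the 4 pools (female control, female CB-NP, male control, male CB-NP) was hybridised to 1 single-colour array. The number of animals or litters in a pool is not given in the sources used here. No pool was hybridised a second time, so the female difference has no replicate spread and no test, and every difference below is a difference between 2 arrays.

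The spleen of a newborn mouse is a blood-forming organ as well as a lymphoid one. Erythroblasts, megakaryocytes and granulocyte precursors fill the red pulp, while B and T lymphocytes arrive and gather around the arterioles to form the white pulp, guided by lymphotoxin and chemokines from stromal cells. Carbon black nanoparticles are nearly pure elemental carbon and are used as a model of the carbon core of inhaled soot. In RNA from a whole organ, fewer cells of a type and less RNA per cell cannot be told apart.

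Levels are given as scaled signals, the scanner's processed signal brought to the same 75th percentile on every array. A difference is the log2 level on the CB-NP array minus that on the control array, so that 1 is a 2-fold higher signal and -1 a 2-fold lower signal. Scaled signals of different genes are not comparable, since each depends on its probe. Well above background is the scanner software's own call. On the female control and CB-NP arrays 58.4% and 57.3% of 59305 spots had that call, and none was saturated. Repeated spots of a probe gave differences with a median SD of 0.07 over 292 probes, and the scanner's own error estimate came to 0.20 for a typical difference. Both describe the scan and the array surface, not the animals.

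The labels held where they could be checked. Xist, the RNA of the inactive X chromosome, had unscaled signals of 915 and 945 on the female control and CB-NP arrays, and the Y-linked genes Ddx3y, Eif2s3y, Uty and Kdm5d gave 2.15 to 3.20 there, none of them above background. On the male control array Ddx3y, Eif2s3y and Uty gave 931, 1010 and 61.1. Kdm5d was not above background on either male array, so its absence in the females checks nothing. The spleen label was borne out by its own genes, several of which were close on both arrays. Tlx1, the homeobox gene needed to form a spleen, had scaled signals of 1360 on the control array and 1320 on the CB-NP array. Spic, the regulator of red pulp macrophages, gave 4710 and 4720, and Slc40a1, the iron exporter of those cells, gave 9150 and 9840. Vcam1, an adhesion molecule of the same macrophages, gave 10700 and 10300. Pf4 of platelets gave 21000 and 21200, and Adgre1, the F4/80 antigen, gave 1340 and 1310. Other spleen markers differed more. Cxcl13 and Nkx2-5 of the stroma gave 1860 and 2650, and 441 and 557. Itga2b of megakaryocytes gave 853 and 729. Hmox1 of red pulp macrophages gave 7480 and 6570, with a log2 difference of -0.66 at its other probe. Markers of neighbouring tissues were mixed. Alb and Apoa1 of the liver, Adipoq of fat, Ckm of muscle and Gcg of pancreatic islets were not above background on either female array, but Afp of fetal liver (20 and 28.1), Fabp4 of fat and vessels (291 and 372), Acta1 of muscle (202 and 176) and the insulin genes Ins1 (46.6 and 78.6) and Ins2 (86.6 and 118) were. Acinar enzymes of the pancreas were strong on the female control array, as described further on.

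Across the 14076 genes the differences lay close to 0, with a median of -0.04 and 43.3% of genes above 0. The middle 90% of genes lay between -0.46 and 0.55, and the SD was 0.339, against 0.304 for the male pair and 0.264 between the female and male control pools. At 2-fold, 93 genes were higher (0.661% of those measured) and 61 were lower (0.433%). At 1.5-fold, 616 genes (4.38%) were higher and 353 (2.51%) lower. The 2-fold split of 60.4% higher turned with the scaling: it was 40.0% with normexp background correction, 42.5% with each array centred on its median, 49.4% with quantile normalization and 73.7% with the authors' deposited values. Centring on the median shifted every difference by -0.11. The counts moved as well: normexp left 20 genes higher and 30 lower at 2-fold, and median centring gave 365 higher and 639 lower at 1.5-fold. Under these scalings lists with medians near 0 turned sign, which is said where they are given.

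The difference depended on the level of a gene. Among 10 groups of equal size ordered by mean signal, the dimmest had a median of 0.13 with 33 genes 2-fold higher and 13 lower. The brightest had a median of -0.11, with 2 genes 2-fold higher and 0 lower. The largest negative differences stood far outside this drift, from dim genes to bright ones such as Prg2. For that reason lists and families with small negative medians are also given after the median of each gene's own level group was taken off, an alternative chosen after seeing the data.

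**Figure D1:**
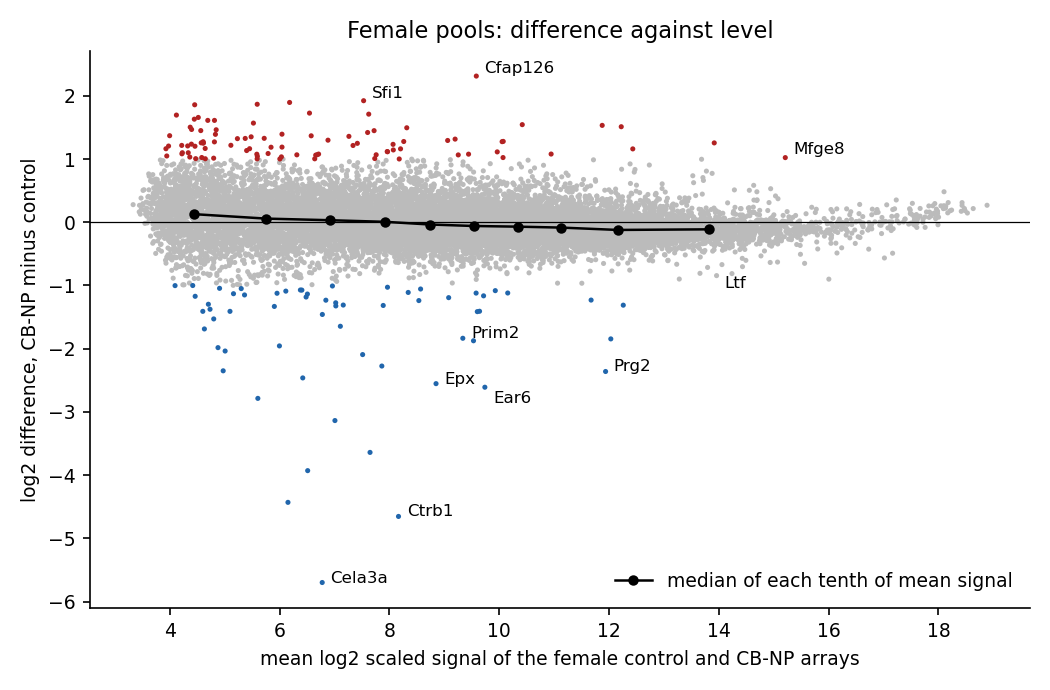
Each point is a gene, with the mean log2 scaled signal of the female control and CB-NP arrays on the horizontal axis and the log2 difference, CB-NP minus control, on the vertical axis; red and blue points are past 2-fold, higher or lower, and black points joined by a line are the medians of 10 groups of equal size. The medians run from 0.13 at the dim end to -0.11 at the bright end, while Cela3a at -5.70 and Cfap126 at 2.31 stand farthest from 0.

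Lists of genes of known cell types and pathways were described next. Of 61 lists, 11 had a median of at least 0.2 and 6 a median of at most -0.2. Those above were lists of T cells, B cells, lymphotoxin and its relatives, MHC class II presentation, interferon-inducible genes and motile cilia. Those below were lists of pancreatic acinar cells, eosinophils, both neutrophil lists, the cell cycle and iron handling. The remaining 44 lists lay between. Of the 93 higher genes 18 belonged to a list, and of the 61 lower genes 21, while 1369 of all measured genes did (9.73%). Of the lower genes 10 were in the acinar list and 7 in the eosinophil list. The lists were chosen with earlier results of these data known, so these shares are no evidence of enrichment.

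**Figure D2:**
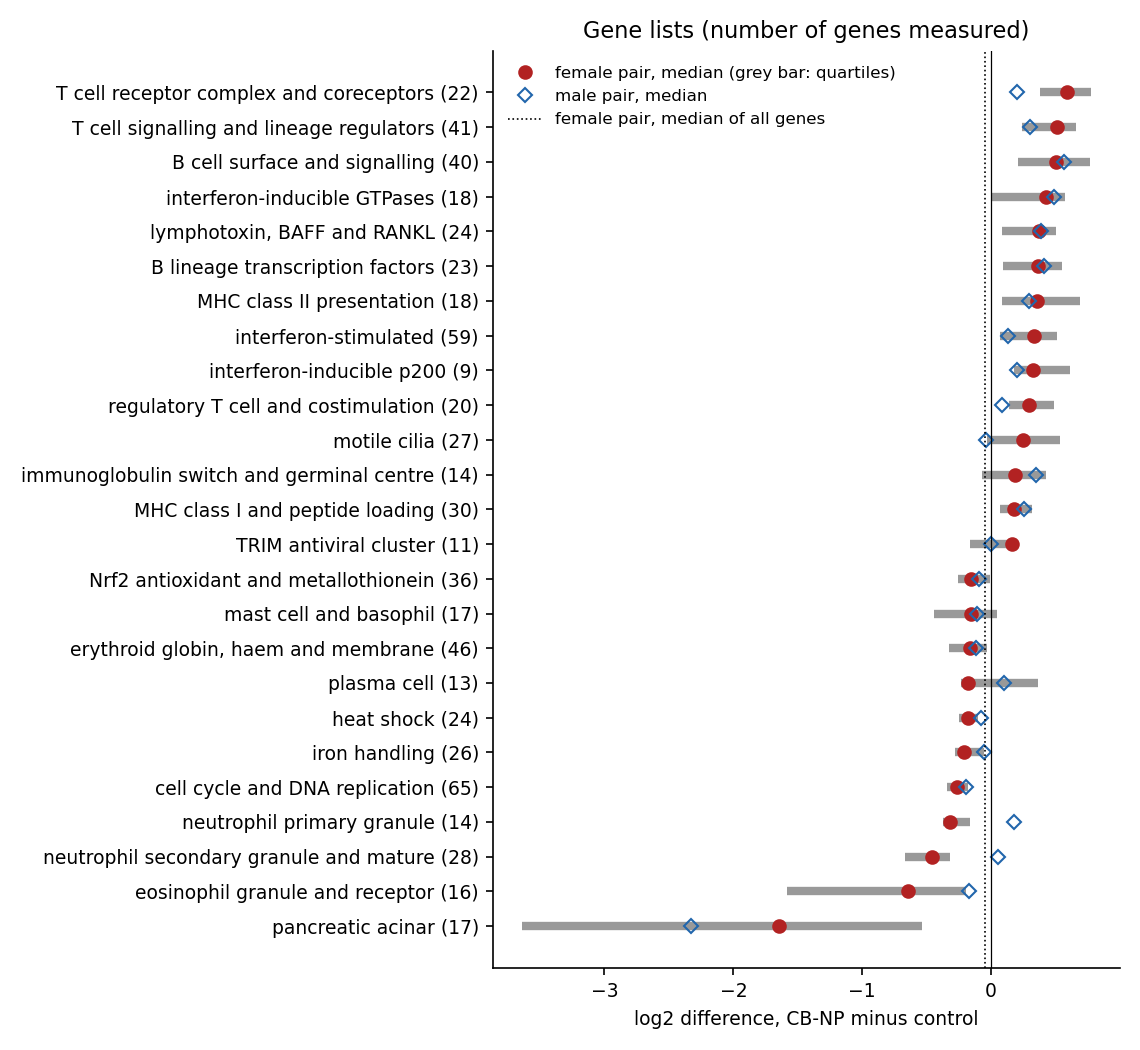
Median log2 difference, CB-NP minus control, of 25 gene lists, with the number of genes measured in brackets; red points and grey bars are the medians and quartiles of the female pair, open diamonds the medians of the male pair, and the dotted line the median of all measured genes. T cell, B cell and interferon lists lie right of 0 and the acinar list farthest left at -1.65, while both neutrophil lists lie left of 0 in the female pair and right of it in the male pair.

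Genes of T lymphocytes were higher on the female CB-NP array. All 22 measured genes of the T cell receptor complex and its coreceptors were above 0, with a median of 0.59, and 12 were at least 1.5-fold higher. Their summed scaled signal was 15700 in the control pool and 22800 in the CB-NP pool. The male pools gave 16300 and 19800, with a median of 0.20, so the female CB-NP pool was the highest of the 4.

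Thy1, a surface protein of all mouse T cells, had scaled signals of 1310 and 2450 on the female control and CB-NP arrays and 1410 and 1600 on the male control and CB-NP arrays. Cd2, an adhesion receptor of T cells, gave 1190 and 2150 in the females and 1470 and 1890 in the males. Cd3g, a chain of the CD3 signalling complex, gave 340 and 564 in the females and 318 and 391 in the males. For these genes the female CB-NP array was the highest of the 4, with female differences of 0.90, 0.86 and 0.73. The CD8 chains mark cytotoxic T cells. Cd8b1 gave 253 and 442 in the females, a difference of 0.81, and 190 and 137 in the males, a difference of -0.48. Cd8a gave 83 and 137 in the females and 68.3 and 74.6 in the males. Cd4, the coreceptor of helper T cells, gave 1010 and 1270 with the brighter probe, a difference of 0.33, and a second Cd4 probe was at -0.00. Cd3d, another CD3 chain, stood at 0.30 and Cd3e at 0.59.

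The T cell signalling and lineage list was also high, with 38 of 41 genes above 0, 17 at least 1.5-fold higher and a median of 0.51 against 0.30 in the males. Tespa1, which links the T cell receptor to calcium release, gave 72.2 and 152. Ms4a4b, a membrane protein of T cells, gave 755 and 1530 in the females and 652 and 1100 in the males. Gimap3, of a family of GTPases that keep peripheral T cells alive, gave 392 and 779 in the females and 434 and 642 in the males. The transcription factors of the lineage had smaller differences: Gata3 stood at 0.69, Tcf7 at 0.67 and Lef1 at 0.67. All 8 measured Gimap genes were above 0, with a median of 0.62 in the females and 0.49 in the males.

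Regulatory T cell and costimulatory genes had a median of 0.29, with 16 of 20 above 0 and 4 at least 1.5-fold higher, against 0.08 in the males. Foxp3, the transcription factor of regulatory T cells, was dim at 20.5 and 34.9 in the females and 31.4 and 25 in the males. Its differences of 0.77 and -0.33 lie at signals near the detection limit. Tnfrsf18 (GITR), a costimulatory receptor, gave 147 and 270. The list of natural killer and cytotoxic genes had a median of 0.11 that turned below 0 with median centring, quantile normalization, without the background filter and after the level correction.

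Genes of B lymphocytes were higher on both the female and the male CB-NP arrays. Of 40 measured B cell surface and signalling genes 33 were above 0 in the females, with a median of 0.50, 17 at least 1.5-fold higher and 1 lower by as much. In the males 38 of 40 were above 0, with a median of 0.56. Their summed signals were 152000 and 189000 in the females and 151000 and 202000 in the males, so the control pools lay together and below both CB-NP pools.

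Siglecg, a sialic acid receptor that damps B cell receptor signals, gave 466 and 904 in the females and 547 and 856 in the males. Fcer2a (CD23), the low affinity IgE receptor of follicular B cells, gave 338 and 641 in the females and 339 and 655 in the males. Both had their control arrays close together and the CB-NP arrays well above them. Cxcr5, the chemokine receptor that brings B cells into follicles, gave 407 and 764 in the females and 461 and 896 in the males. Cd72, Btla and Blnk, which modulate or relay B cell receptor signals, stood at 0.93, 0.81 and 0.79. Among the members that went the other way, Il4ra, the IL-4 receptor, gave 133 and 82.8, a difference of -0.68. Cd22, named after its value was seen, gave 549 and 470.

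Among the transcription factors of the B lineage 20 of 23 were above 0, with a median of 0.37 in the females and 0.41 in the males. Pax5, which fixes B cell identity, gave 47.3 and 94.6 in the females and 57.5 and 92.2 in the males, a female difference of 1.00, with 0.33 at a second probe. Pou2f2 (Oct-2) stood at 0.73. Spi1 (PU.1), which also drives myeloid cells, gave 158 and 104, a difference of -0.60. The list of B cell precursor genes was spread to both sides of its median of 0.05, which turned below 0 with median centring, with 9 of 16 above 0. Rag1, an enzyme of antigen receptor rearrangement, gave 60 and 33, and Igll1, of the surrogate light chain, 83.5 and 47.3, while Erg, a transcription factor shared with stem cells, gave 57.5 and 92.3.

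Ligands and receptors of the TNF family that organise lymphoid tissue were higher in most members. In the lymphotoxin, BAFF and RANKL list 21 of 24 genes were above 0, with a median of 0.37 in the females and 0.39 in the males. Ltb, the lymphotoxin beta chain carried by lymphocytes, gave 9150 and 15200 in the females and 9360 and 15900 in the males. Lta, its partner, stood at 0.83 in the females and 0.76 in the males. Tnfrsf13c, the BAFF receptor needed for B cell survival, gave 1430 and 2440 in the females and 1390 and 2540 in the males. Its ligand BAFF (Tnfsf13b), made by myeloid and stromal cells, was lower at 75.9 and 53.8, a difference of -0.50. Cd40, the receptor for T cell help, gave 231 and 365. S1pr1, the receptor by which lymphocytes leave tissue, gave 507 and 936 in the females and 658 and 939 in the males. Its list, lymphoid chemokines and homing receptors, had a median of only 0.06 with 13 of 22 above 0, which turned below 0 with median centring, and 0.33 in the males.

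Antigen presentation by MHC class II, which B cells, dendritic cells and macrophages share, stood at a median of 0.36 with 14 of 18 genes above 0 and 7 at least 1.5-fold higher. The male median was 0.29. H2-Ob, the inhibitory chain of H2-O that is made mainly by B cells, gave 341 and 837 in the females and 442 and 986 in the males, a female difference of 1.29, with 0.80 at a second probe. H2-Eb1, a class II beta chain, gave 9330 and 18600 in the females and 13100 and 19900 in the males. Cd74, the invariant chain, gave 10700 and 17000 in the females and 11800 and 17800 in the males. H2-Ob was among the 4 genes that were above background on all 4 arrays and at least 2-fold higher in both sexes. H2-Ab1 stood at 0.71, while its partner chain H2-Aa, named after its value was seen, gave 686 and 658 in the females and 773 and 348 in the males. MHC class I and peptide loading genes had a median of 0.17 with 24 of 30 above 0, and 0.25 in the males. Nlrc5, the transactivator of class I genes, gave 212 and 354.

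**Figure D3:**
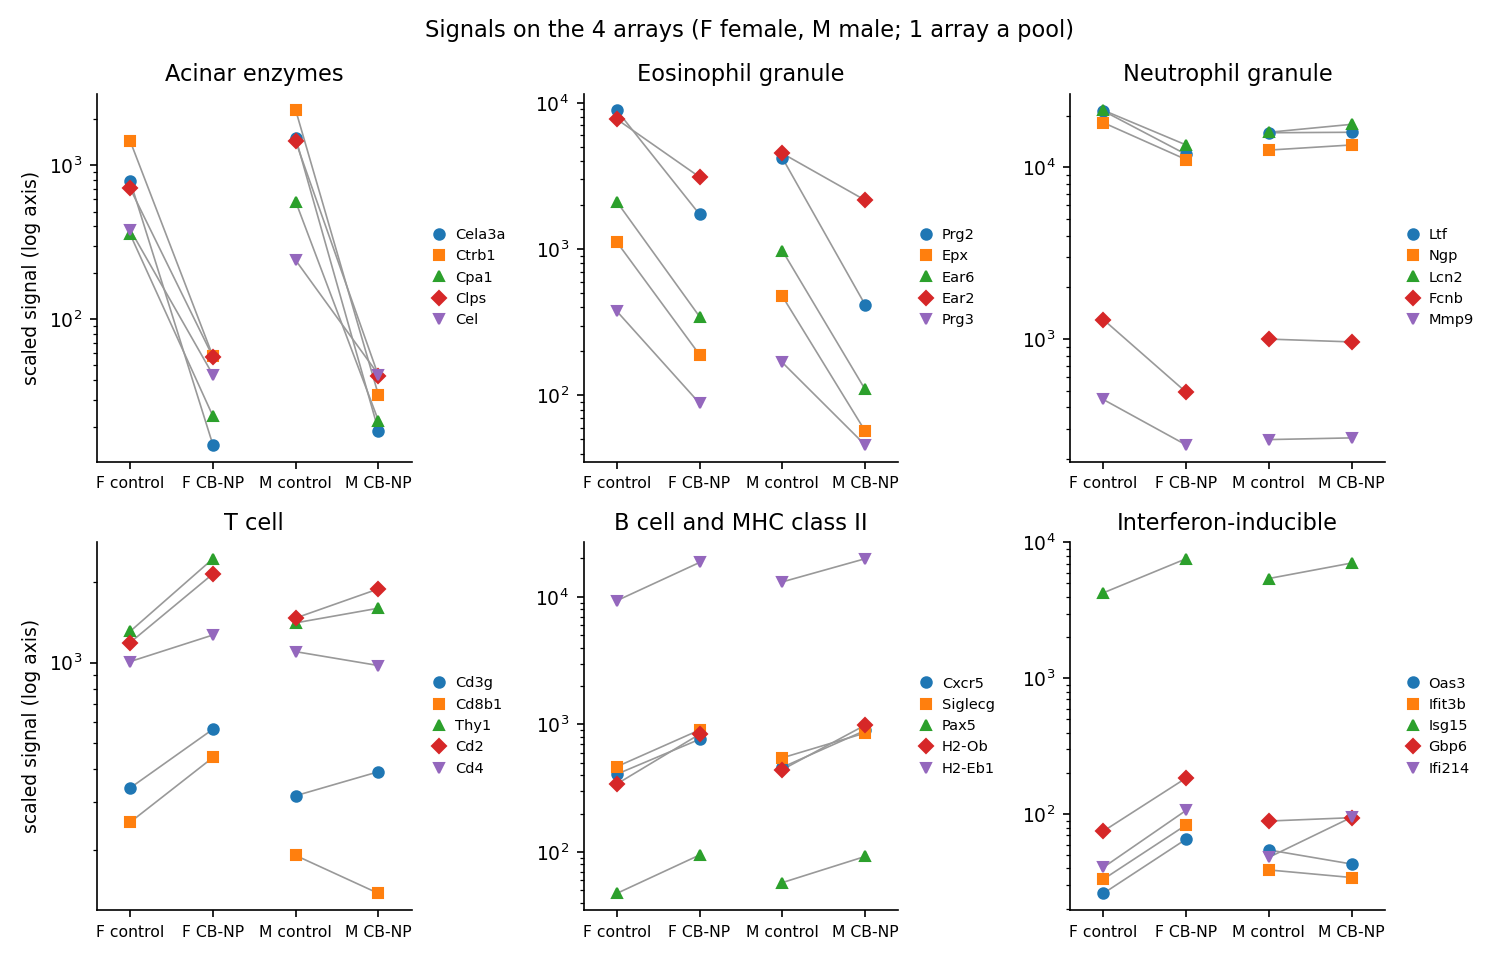
Scaled signals on a log axis for 5 genes of each of 6 groups, with 1 point an array and lines joining the control (left) and CB-NP (right) array of each sex. Acinar and eosinophil granule genes are lower on both CB-NP arrays (Prg2 8890 and 1730 in females). Neutrophil genes such as Ltf are lower in the females, and B cell genes such as Cxcr5 are higher in both sexes.

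Interferon-inducible genes were higher on the female CB-NP array in most groups, mostly by less than 2-fold and in some groups by little. Of 59 measured interferon-stimulated genes 49 were above 0, with a median of 0.33, 10 past 1.5-fold and 3 past 2-fold. In the males 35 of 58 were above 0 with a median of 0.13. The male difference of the interferon-inducible GTPases was as large as the female: 13 of 18 were above 0 in the females, 5 of them at least 1.5-fold higher, with medians of 0.42 and 0.49. The 9 p200 genes, which encode DNA sensors and their relatives, had a median of 0.33 with 8 above 0, and 0.20 with 9 above 0 in the males. The TRIM antiviral cluster had a median of 0.16 with 7 of 11 above 0, and -0.005 in the males. A further 2 of its genes were above background on the female control array only. Genes with an Ifi symbol, taken as a family, had a median of 0.08 with 14 of 23 above 0. That median turned to -0.03 with median centring.

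The oligoadenylate synthetases, which make the activator of RNase L on sensing double-stranded RNA, had the highest family median with the Gimap genes. All 8 measured Oas genes were above 0 with a median of 0.62, against -0.28 and 3 of 9 above 0 in the males. A further 1 was above background on the female control array only, and with it entered at its bound the female median was 0.57. Oas3 gave 26.2 and 65.7 in the females, a difference of 1.33, and 54.7 and 43.1 in the males, a difference of -0.34. Its female control array was the lowest of the 4 and its female CB-NP array the highest. Oas2 gave 85.2 and 151 in the females and 91.7 and 91.6 in the males. Members of this family are alike in sequence and their probes may share RNA, so the count of 8 may hold fewer separate signals.

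Ifit3b, of the family that binds viral RNA ends, gave 33.3 and 83.5 in the females and 39 and 34.3 in the males. Isg15, the ubiquitin-like protein induced by interferon, gave 4260 and 7590 in the females and 5430 and 7060 in the males. Ifi27l2a, a bright mitochondrial protein gene of the same response, gave 3880 and 7360 in the females and 4430 and 4290 in the males. All 3 were highest on the female CB-NP array, with female differences of 1.33, 0.83 and 0.92. Ifit2, named after its value was seen, went the other way, from 189 to 140. Among the GTPases, Gbp6, a guanylate-binding protein that coats intracellular pathogens, gave 75.2 and 185 in the females and 89.3 and 94.5 in the males, with 0.89 at a second female probe. Gbp5 gave 134 and 223 in the females and 116 and 195 in the males. Ifi214 of the p200 group gave 40.7 and 107 in the females and 48.3 and 95.2 in the males. Trim12c, of a cluster of antiviral TRIM genes, gave 111 and 263 in the females and 139 and 269 in the males, a female difference of 1.25 that was 0.42 at its lowest other probe.

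The promoters of 4 of the interferon genes that were at least 2-fold higher carry a match to GAAANNGAA, the core of the element bound by interferon-activated STAT and IRF factors, and are shown for that reason. The stretches are from RefSeq, build GRCm38.p6, read 5′ to 3′ on the strand of the gene, and capitals mark the matches on either strand (its reverse complement where the match lies on the opposite strand). They lie at chr5:120777700-120777754 on the minus strand (Oas3, 2 overlapping matches, 75 and 69 bases before the start), chr19:34607750-34607851 on the plus strand (Ifit3b, 3 matches, from 187 to 134 bases before the start), chr1:173536008-173536056 on the minus strand (Ifi214, 79 bases before the start) and chr7:104353350-104353397 on the minus strand (Trim12c, 28 bases before the start).
Oas3: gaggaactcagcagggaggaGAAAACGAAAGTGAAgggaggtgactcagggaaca
Ifit3b: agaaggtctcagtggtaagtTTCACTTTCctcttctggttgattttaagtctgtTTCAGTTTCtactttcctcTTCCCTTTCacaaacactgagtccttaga
Ifi214: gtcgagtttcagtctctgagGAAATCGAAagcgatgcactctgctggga
Trim12c: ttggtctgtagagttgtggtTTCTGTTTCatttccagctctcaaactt

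Over windows from 250 bases before to 50 after the start, 991 of the 11214 measured genes with a window held GAAANNGAA (8.84%). It was in 20 of 46 interferon-stimulated genes (43.5%), 10 of 11 interferon-inducible GTPases (90.9%), 5 of 8 p200 genes (62.5%) and 7 of 10 genes of the TRIM cluster (70.0%). These shares describe the lists, whatever their signals here. Of the genes 2-fold higher 15 of 76 held it (19.7%), and of the genes 2-fold lower 14 of 51 (27.5%). The lower genes that held it include Ear1, Ear2, Ear6, Ear10 and Rnase2a, paralogs that share 1 nearly identical stretch, shown further on. They are not separate cases. At 1.5-fold the shares were 12.5% (59 of 473) and 8.99% (25 of 278). The motif TTCNNNGAA, the core of the gamma-activated site, was in 8.51% of all windows, in 6 of 11 GTPases (54.5%) and in 5.26% of the genes 2-fold higher. Of 14 interferon and eosinophil genes past 2-fold, 12 had a window and 9 of these a match before the start. None of the 4 interferon genes shown stayed 2-fold higher with normexp, where Oas3 stood at 0.65, Ifit3b at 0.62, Ifi214 at 0.84 and Trim12c at 0.90. A match is a run of letters and not a measured binding site.

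Among single genes the largest difference upwards was that of Cfap126, a protein of motile cilia. It gave 344 and 1710 in the females and 340 and 1460 in the males, a 4.97-fold higher female signal, with a difference of 2.27 at a second probe. The control arrays were close to each other and both CB-NP arrays lay far above them. Fads3, of the fatty acid desaturase family, had the same form at 1360 and 2860 in the females and 1380 and 3010 in the males. Efcab9, a calcium-binding protein of the sperm tail, gave 19.6 and 39.6 in the females and 12.5 and 47.5 in the males. With H2-Ob these made up the 4 genes at least 2-fold higher in both sexes among those above background on all 4 arrays. Efcab9 is dim, and its female difference of 1.01 was 0.59 with normexp. The list of motile cilia genes as a whole had a median of 0.25 with 19 of 27 above 0 in the females, and -0.04 in the males. That median became -0.0056 when only genes with signals of at least 50 were kept.

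Many of the other genes at the top differed little in the male pair, and in the females stood apart from the males on both sides. Lzts3, a synaptic scaffold protein, gave 2830 on the female control array, 8070 on the female CB-NP array, and 4340 and 4720 on the male control and CB-NP arrays. Cabp5, a calcium-binding protein of retinal cells, gave 3700 and 8260 in the females and 5760 and 6410 in the males. In both genes the female control was the lowest array, the female CB-NP the highest, and both male arrays lay between and near each other. Sfi1, a centriole protein, had the same form at 95 and 360 in the females and 154 and 163 in the males. So had Ddx25, a helicase of male germ cells, at 190 and 535 in the females and 320 and 324 in the males, and Tdgf1 (Cripto), a coreceptor of Nodal, at 197 and 478 in the females and 287 and 286 in the males. Tbx22, Shc4, Rabgap1 and Klra1 had it too, with female differences of 1.71, 1.53, 1.45 and 1.36 and male differences between -0.10 and 0.07. For Shc4 and Rabgap1 a second probe gave only 0.04 and 0.18.

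Over the 88 genes 2-fold higher in the females and measured in the males, the female median was 1.23 and the male median 0.12. In 80 of the 88 the female control pool was below the male control pool, with a median of -0.54. That second contrast shares the female control array with the first, so the 2 values are not independent. Among all genes measured the female control pool was the lower control in 6614 of 13973, with a median of 0.01. In 60 of the 88 the male pair differed by less than 1.5-fold, a smaller share than the 13325 of 13936 among all genes measured in both pairs. Of the 88, 57 were above 0 in the males (64.8%, against 45.4% of all genes measured in both pairs).

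**Figure D4:**
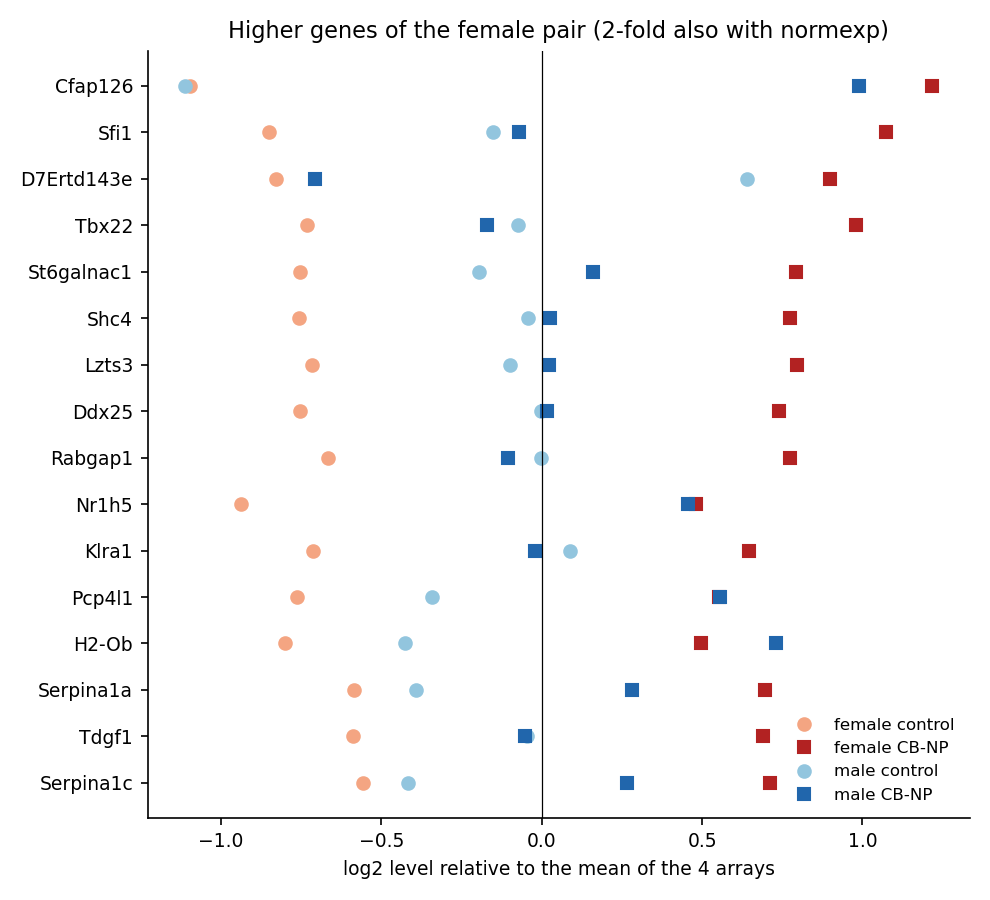
Log2 level relative to the mean of the arrays for the 16 genes with the largest higher differences in the female pair among those also 2-fold with normexp, circles for control and squares for CB-NP, females in orange and red, males in light and dark blue; points not above background are left out. For genes such as Lzts3 and Ddx25 the female control lies lowest, the female CB-NP highest and both male arrays between, while Cfap126 and H2-Ob have both CB-NP arrays above both controls.

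Several other genes at the top have known roles. St6galnac1, a sialyltransferase of mucin-type glycans, gave 802 and 2340 in the females and 1180 and 1510 in the males. Dtx1 (Deltex), a target and modulator of Notch signalling in lymphocytes, gave 679 and 1470 in the females and 929 and 1520 in the males. Pcp4l1, a small protein of the PEP-19 family, gave 372 and 926 in the females and 498 and 929 in the males. These were higher on both CB-NP arrays. Nr1h5 (FXR beta) gave 119 and 318 in the females, while in the males it was not above background on the control array (2.14) and 313 on the CB-NP array, at least 43.2-fold higher there. Serpina1a and Serpina1c, alpha-1 antitrypsin genes known mainly from liver, gave 691 and 1680, and 684 and 1650. Serpina1d and Serpina1e, named after their values were seen, stood at 1.11 and 1.08. These paralogs are nearly identical, so their probes may report the same RNA and cannot be counted as 4 results. In the liver list, which includes some of these paralogs, 9 of 13 measured genes were above 0 with a median of 0.11. Its markers Alb and Apoa1 were not above background and Afp gave 20 and 28.1. The part of liver RNA in the Serpina1 difference was not tested.

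The list of splenic macrophage genes had no clear side, with 14 of 30 above 0, 5 at least 1.5-fold higher, 3 at least 1.5-fold lower and a median of -0.02 that turned above 0 with quantile normalization, with the authors' deposited values and after the level correction. Single genes of phagocytes and lipid handling were higher. Mfge8, which bridges dying cells to phagocytes, gave 26600 and 54000 in the females and 30500 and 48700 in the males, a female difference of 1.02. Pla2g2d, a secreted phospholipase of lymphoid tissue macrophages and dendritic cells, gave 175 and 411 in the females and 245 and 477 in the males. Marco, a scavenger receptor of marginal zone macrophages that binds particles, gave 10600 and 18500 in the females and 14100 and 13800 in the males. Marco was therefore highest in the female CB-NP pool, with a male difference near 0. Cd5l, a macrophage protein that inhibits cell death, gave 326 and 563. Il4i1, an amino acid oxidase of activated B cells and macrophages, gave 2390 and 4740 in the females and 2250 and 4410 in the males. Madcam1, an adhesion molecule of the marginal sinus, gave 1050 and 2070, a difference of 0.98, with 0.16 at a second probe.

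On the lower side the largest differences belonged to digestive enzymes of pancreatic acinar cells. Cela3a, an elastase, gave 791 and 15.2 in the females and 1500 and 18.8 in the males, a 51.9-fold lower female signal. Ctrb1, chymotrypsinogen, gave 1440 and 57.3 in the females and 2280 and 32 in the males. Clps, the cofactor of pancreatic lipase, gave 708 and 56.8 in the females and 1430 and 42.7 in the males. Both control arrays carried these signals and both CB-NP arrays were far below them, for Cela3a near the detection limit. Cpa1, a carboxypeptidase, gave 356 and 23.4, Cel, a lipase, 382 and 43.4, and Sycn of the zymogen granule 201 and 36.6.

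Of 46 acinar genes with a probe 33 were well above background on the female control array and 17 on the female CB-NP array, with 34 and 18 in the males. Their summed scaled signals were 9740 and 1200 in the females and 12400 and 1220 in the males. Among the 17 measured on both female arrays 1 was above 0, 10 were at least 2-fold lower and the median was -1.65. A further 16 were above background on the control array only and have lower bounds, computed against the dimmest signal called above background: the amylase gene Amy2a5 gave 1110 and 6.96 and was at least 103-fold lower, and the lipase relative Pnliprp1 at least 48.0-fold lower. The trypsinogens Try5 and Try4 were at least 52.8-fold and 34.6-fold lower, and belong to a family whose probes may share RNA. With bounds included the list median was -2.46. The insulin genes did not follow in the females, where Ins1 and Ins2 gave 46.6 and 78.6, and 86.6 and 118. In the males both were lower on the CB-NP array, at 482 and 9.57, and 447 and 41.1. The share of pancreas in each pool was not measured otherwise, and its part in the other differences was not tested.

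Granule genes of eosinophils were lower on both CB-NP arrays. Prg2, the major basic protein of the granule core, gave 8890 and 1730 in the females and 4200 and 417 in the males. Epx, eosinophil peroxidase, gave 1120 and 190 in the females and 477 and 57.2 in the males. Prg3, a relative of major basic protein, gave 377 and 88.5 in the females and 168 and 45.9 in the males. Each had its highest signal in the female control pool, and each CB-NP pool lay below the control pool of its own sex. The female differences were -2.36, -2.55 and -2.09.

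The eosinophil-associated ribonucleases, small secreted enzymes of the same granules, were lower too. Ear6 gave 2110 and 346 in the females and 977 and 110 in the males. Ear2 gave 7730 and 3110 in the females and 4510 and 2160 in the males, and Rnase2a gave 5010 and 2130 in the females and 2900 and 1670 in the males. Ear1 and Ear10 stood at -1.41 and -1.12. In all of them the CB-NP array was the lower of its sex. The genes arose by duplication and are alike enough for probes to share RNA, so the 4 measured Ear genes and Rnase2a may be fewer separate signals. Their likeness extends to the promoter, shown here because these genes were lower together: the same stretch around a match to GAAANNGAA (capitals) is found 105 to 149 bases before each start. From RefSeq, GRCm38.p6, it lies at chr14:43819718-43819766 on the minus strand (Ear1), chr14:51853621-51853669 on the plus strand (Ear6) and chr14:51256233-51256281 on the minus strand (Rnase2a). Ear2, at chr14:44102529-44102577 on the plus strand, is identical to Ear1 over these 49 bases, Ear6 and Ear10 differ from it at 3 bases, and Rnase2a at 6.
Ear1: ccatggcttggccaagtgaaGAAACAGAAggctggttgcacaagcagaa
Ear6: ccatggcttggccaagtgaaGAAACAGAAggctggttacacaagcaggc
Rnase2a: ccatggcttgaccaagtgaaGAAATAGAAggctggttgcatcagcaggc

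Receptors of eosinophils had smaller differences than the granule genes. Siglecf, a surface lectin of these cells, gave 129 and 77, and Ccr3, the eotaxin receptor, 691 and 530, with a male difference of 0.54 for Ccr3. Il5ra, the IL-5 receptor, gave 92.4 and 165. The whole list of 16 had a median of -0.65 with 2 above 0, and 7 were at least 2-fold lower, all of them granule proteins or ribonucleases. In the males 7 of 16 were above 0, with a median of -0.17. The female control pool was above the male control pool in 15 of 16, with a median of 0.59, and it is the same array that serves as the female control. Summed signals were 34100 and 15300 in the females and 21000 and 14100 in the males.

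Neutrophil genes were lower on the female CB-NP array and not on the male one. Of 28 secondary granule and mature neutrophil genes 3 were above 0 in the females, with a median of -0.46 and 11 at least 1.5-fold lower. In the males 18 of 28 were above 0, with a median of 0.06. The difference between the sexes was not tested. Ltf, lactoferrin, gave 21300 and 11900 in the females and 15900 and 16000 in the males. Ngp, a granule protein of the cathelicidin family, gave 18200 and 11100 in the females and 12600 and 13500 in the males. Lcn2, the siderophore-binding lipocalin, gave 21500 and 13500 in the females and 16000 and 17800 in the males. The male arrays lay between the female arrays in Ltf, Ngp and Lcn2 alike.

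Mmp9, gelatinase B, gave 445 and 242 in the females and 260 and 266 in the males. Anxa1, an anti-inflammatory protein of neutrophils, stood at -0.81, Cd177 at -0.78 and Padi4, which citrullinates histones, at -0.75. S100a9, a chain of the abundant protein calprotectin, gave 187000 and 185000. Relative to the mean of the 4 arrays, the list's median level was 0.28 in the female control, -0.21 in the female CB-NP, -0.02 in the male control and 0.00 in the male CB-NP pool.

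Genes of primary granules, made at the promyelocyte stage, had a median of -0.32 with 0 of 14 above 0 in the females, and 0.18 with 12 of 14 above 0 in the males. Cebpe, the transcription factor that drives the switch to secondary granules, gave 6590 and 4500 in the females and 5260 and 5890 in the males. Fcnb, a ficolin of granulocyte precursors, gave 1300 and 491 in the females and 1000 and 963 in the males, a female difference of -1.41. Elane, neutrophil elastase, gave 10000 and 7960 in the females. Mpo, myeloperoxidase, gave 54400 and 50800, a difference of -0.10.

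Other myeloid lists lay near 0, with single genes lower. Ly6c1, a surface protein of monocytes and other cells, gave 13600 and 7270 in the females and 10500 and 11500 in the males, and its other probe stood at -1.34. Lilrb4a, an inhibitory receptor of myeloid cells, gave 1050 and 559, and C1qb of complement 2170 and 1370. Pou2f2, also in the monocyte list, stood at 0.73. That list had a median of 0.04 with 13 of 24 above 0, which turned below 0 with normexp and median centring, and the complement and coagulation list 0.02 with 15 of 30 above 0, below 0 with median centring. Cma1, a mast cell chymase, gave 225 and 90.9 in the females and 139 and 76 in the males, and Mcpt2, another mast cell protease, gave 182 and 95.2 in the females and 142 and 70.2 in the males. The mast cell and basophil list as a whole had a median of -0.16 with 7 of 17 above 0. Alox5, which makes leukotrienes in granulocytes, gave 1030 and 577. Megakaryocyte and platelet genes stood at -0.03 in the females, above 0 with quantile normalization, the authors' deposited values and the level correction, and at 0.26 with 26 of 30 above 0 in the males.

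Genes of cell division were slightly lower, with small differences in nearly all members. Of 65 measured cell cycle and DNA replication genes 2 were above 0, and the median was -0.26 in the females and -0.19 in the males, where 5 of 65 were above 0. After the level correction the female median was -0.15. Mcm5, of the replicative helicase, gave 17900 and 13300 in the females and 17400 and 14300 in the males. Gins2 of the same machine gave 2040 and 1400, and Top2a, topoisomerase II, 5660 and 4110. Rfc3, of the clamp loader, stood at -0.66. Prim2, the large subunit of primase, gave 1220 and 343 in the females and 1090 and 33.8 in the males, differences of -1.84 and -5.01 that stand far from the rest of the list. Cdk2 was the exception upwards at 304 and 458 in the females, with 607 and 443 in the males.

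Families defined by gene symbol gave a similar picture for housekeeping machinery. Of 77 families with at least 8 measured members, 33 had medians within 0.1 of that of all genes, and the range was from -0.31 to 0.62. The lowest was the Mcm and Gins family with 0 of 14 above 0. Proteasome genes (Psm) had a median of -0.29 with 6 of 45 above 0, mitochondrial ribosomal proteins (Mrpl and Mrps) -0.26 with 2 of 77, and translation initiation factors (Eif) -0.25 with 5 of 52. After the level correction these were -0.18, -0.16 and -0.15. Eif2b3, of the exchange factor for eIF2, gave 1490 and 856. Mrpl37 gave 915 and 610, and the proteasome inhibitor Psmf1 3150 and 2090. Subunits of the ATP synthase (Atp5) had a median of -0.20 with 0 of 17 above 0, which came to -0.09 after the level correction. Complex I subunits (Nduf) went from -0.18 to -0.05 in the same way. Cytoplasmic ribosomal proteins stood at -0.00 and took either sign with the scaling.

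The families at the upper end were immune. After Oas and Gimap came the guanylate-binding proteins (Gbp) at 0.55 with 8 of 10 above 0 and the H2 genes of the MHC at 0.37 with 23 of 25. Next were the TNF receptors (Tnfrsf) at 0.31 with 14 of 18 and the Irf genes at 0.30 with 10 of 12. The Irf genes were taken by symbol, so they hold interferon regulatory factors and also Irf2bpl. Irf4, needed in activated lymphocytes, gave 369 and 524. Hox genes, dim in this tissue, had a median of 0.26 with 12 of 18 above 0. Olfactory receptors, dim as well, had 0.19 with 46 of 64 above 0, which came to 0.08 after the level correction and -0.21 in the males.

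**Figure D5:**
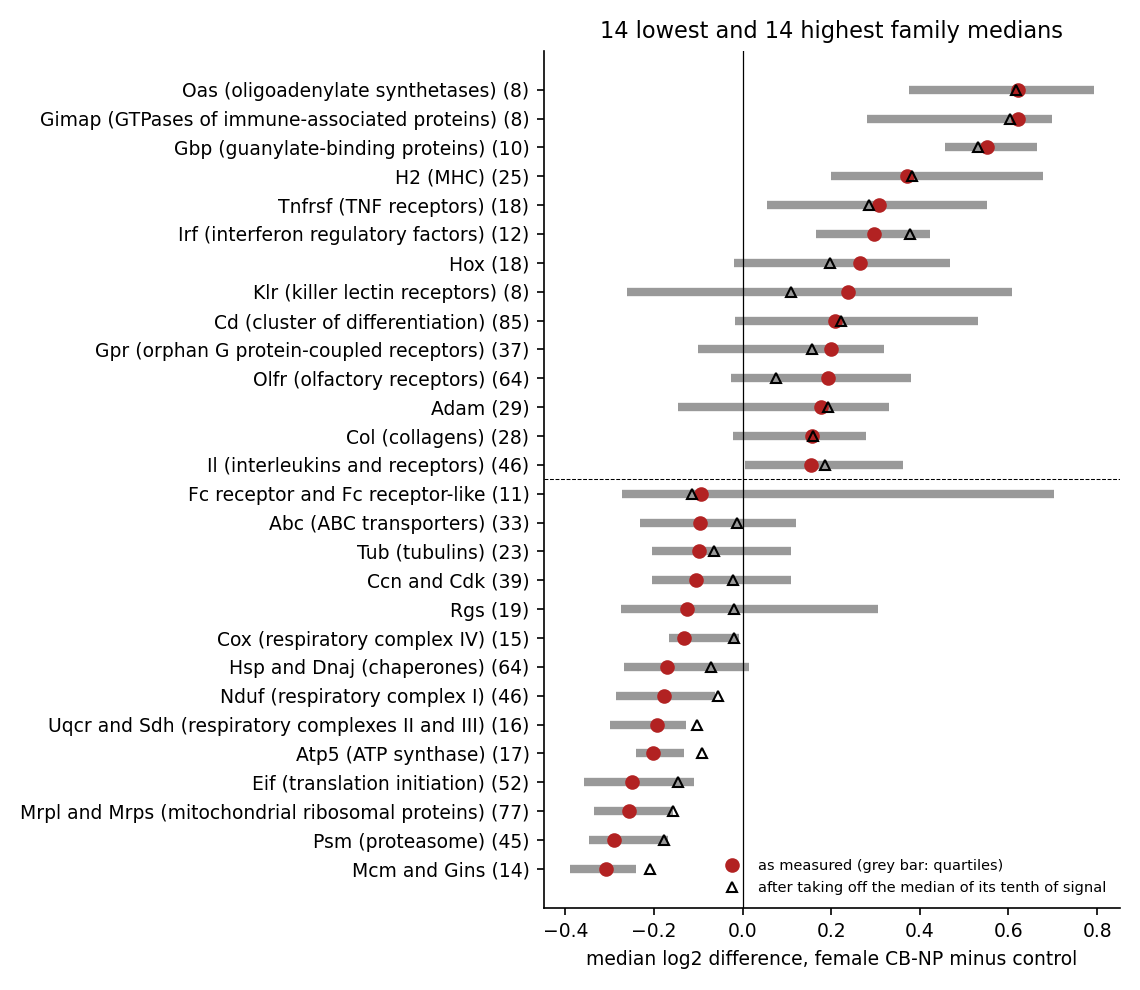
Median log2 difference, female CB-NP minus control, of the 14 families with the highest and the 14 with the lowest medians, with the number of genes measured in brackets; red points and grey bars are medians and quartiles, and open triangles the medians after the level correction. Oas, Gimap and Gbp stay near 0.6 with or without the correction, while Atp5 and Nduf move to -0.09 and -0.05.

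Most genes of the red cell programme were slightly lower. Of 46 erythroid genes 10 were above 0, with a median of -0.16 in the females and -0.12 in the males, and -0.05 after the level correction. Alad, of haem synthesis, gave 54700 and 38500 in the females and 52400 and 40500 in the males. Trim10, a ubiquitin ligase of erythroblasts, gave 10600 and 7020 in the females and 10300 and 7210 in the males. Car1, carbonic anhydrase I, gave 26800 and 18100 in the females and 17500 and 20100 in the males. Of 7 measured globin genes 5 were above 0: Hba-a1 gave 441000 and 531000 and Hbb-bt 322000 and 387000, and as paralogs they may share RNA with other globin probes. Iron handling genes had a median of -0.21 with 6 of 26 above 0, against -0.05 in the males and -0.14 after the level correction. Erfe (erythroferrone), by which erythroblasts lower hepcidin, gave 548 and 263 in the females and 421 and 447 in the males, with -0.86 at a second female probe. Hp, haptoglobin, which binds free haemoglobin, gave 11700 and 8970.

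Genes that respond to oxidants or foreign chemicals in other settings mostly differed by less than 1.5-fold, as did most of all genes measured. Of 36 Nrf2 and metallothionein genes 0 were past 1.5-fold in either direction, where 4.38% of all genes were higher and 2.51% lower. Their median was -0.16, -0.05 after the level correction, and 9 were above 0. Nqo1, a quinone reductase, gave 490 and 398, Hmox1, haem oxygenase, 7480 and 6570, with -0.66 at its other probe, and Mt1, a metallothionein, 45300 and 43300. Those 3 were named after their values were seen. Gsr, glutathione reductase, stood at -0.53. Cyp1b1, a target of the aryl hydrocarbon receptor, gave 239 and 360, in a list with 3 of 10 above 0 and a median of -0.10. Heat shock genes had a median of -0.18, -0.09 after the level correction, with 3 of 24 above 0, and Hspb8, a small chaperone, gave 93.3 and 49.8.

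The other genes that were clearly lower belonged to no group that was low. Aldh1a7, an aldehyde dehydrogenase, gave 511 and 106 in the females and 384 and 369 in the males. Unc93a2, a membrane protein of the Unc93 family, gave 7940 and 2210 in the females and 8300 and 3060 in the males. Maged1, a regulator of cell survival and the clock, gave 1680 and 774 in the females and 1810 and 1620 in the males. Only Unc93a2 of these was low on both CB-NP arrays. Cbr2, a carbonyl reductase, gave 570 and 242 in the females and 1930 and 474 in the males. Itgb3bp, a centromere protein, gave 1420 and 669 in the females and 1200 and 597 in the males. Trp53bp1, of the DNA break response, gave 1420 and 386 in the females, a difference of -1.87, but its other probe stood at 0.42, so the gene has no settled direction. Of the 59 genes 2-fold lower and measured in the males, 49 were below 0 there (83.1%, against 54.6% of all genes measured in both pairs) and 24 were 2-fold lower.

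Some genes were above background on only 1 of the female arrays, 241 on the CB-NP array and 394 on the control array. Their bounds reached 2-fold or more for 77 higher and 55 lower genes. The highest bound belonged to Zfp641, a zinc finger protein, at 2.18 and 68.5 in the females, at least 7.64-fold higher, and 2.38 and 2.14 in the males. Slc17a3, an organic anion transporter, was at least 3.69-fold higher. Apart from acinar genes the lowest was Pard6b, a cell polarity protein, at 526 and 4.50 in the females, at least 49.1-fold lower, and 8.11 and 4 in the males. Zfp641 and Pard6b were therefore at background on 3 of the 4 arrays. Lefty1, an inhibitor of Nodal, was at least 14.4-fold lower. Where a gene had several probes, its call usually held in direction: among 18 genes past 2-fold with a further measured probe, 15 had every other probe on the same side, and 7 had another probe past 2-fold.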

How the data were processed

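Per the labels, spleen RNA was pooled for each sex and treatment, labelled with Cy3 and hybridised to 1 Agilent array a pool. Per the file headers, the authors extracted intensity values with Feature Extraction 10.10.1.1 from a design annotated on mm9. Main values are log2 of the deposited processed intensity minus each array's 75th percentile of it, averaged over the spots of a probe. The authors' deposited value table of the same arrays, taken to log2 here, served as an alternative. Probes were matched to RefSeq (GRCm38.p6) by accession, giving 20284 genes; 28919 probes had no match and were set apart. A gene with several probes took the brightest by its mean level on all arrays, and was kept if well above background on both female arrays. Bounds set the brighter signal against the higher of the dimmest signal called above background and the dim probe's own. Genes were named by a rule: the 20 highest and lowest that were also 2-fold with normexp, the 8 largest bounds, the members of lists and families farthest from 0, and genes 2-fold in both sexes. Members and lists were chosen with earlier results of these data known. Some results are not reported here. With 1 array a group no test of the female difference was possible. The 9 alternatives included normexp (limma 3.58.1, R 4.3.3, offset 50, median signal and background), median and quantile scaling, other filters and probe choices. The scripts were tested on simulated data.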

Additional observations from a re-analysis of the deposited data

Results flagged for a closer look

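Of the genes measured in both sexes, 3 were at least 2-fold higher in the female pair and at least 2-fold lower in the male pair; the difference between the sexes was not tested. D7Ertd143e had a female difference of 1.73, with scaled signals of 51.3 and 170 in the females and 142 and 55.8 in the males. Nkpd1, an NTPase domain gene, had a female difference of 1.63, with 12.4 and 38.4 in the females and 33.5 and 15.4 in the males. The pseudogene Znf41-ps had a female difference of 1.35, with 28 and 71.4 in the females and 59.7 and 24.2 in the males. With normexp the female differences were 1.04, 0.61 and 0.80, so only D7Ertd143e stayed past 2-fold. In each the female control and the male CB-NP arrays were the low ones.

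Probes that matched no RefSeq gene were outside the comparison. Of 11882 of them measured on both female arrays, 201 (1.69%) were at least 2-fold higher and 49 (0.412%) lower, with a median of 0.07, against 0.661% and 0.433% of the matched genes. Among 5902 measured probes to genomic intervals, 116 were higher and 17 lower. The unmatched probes that were 2-fold higher had medians of 1.16 in the female pair and 0.19 in the male pair. Of these, 179 of 194 were lower in the female than in the male control pool, against 6614 of 13973 matched genes. That contrast shares the female control array.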

How the results depend on the processing

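Values were recomputed under 9 alternatives. For the 17 lists with medians at least 0.2 from 0, 152 of 153 values kept their sign, while 26 of the other 44 lists turned sign under at least 1 alternative. Of 353 values of the 40 genes chosen as highest and lowest, 349 stayed past 2-fold with 0 reversed, but they were chosen as 2-fold with normexp, where 20 of the 93 higher and 29 of the 61 lower genes stayed. Normexp background correction gave 20 genes higher and 30 lower at 2-fold, 200 and 159 at 1.5-fold, and an acinar median of -1.10. Median centring gave 365 higher and 639 lower at 1.5-fold. The authors' deposited table gave 140 higher at 2-fold and 219 lower at 1.5-fold. Without the background filter there were 649 higher and 455 lower at 2-fold, 1570 and 1087 at 1.5-fold, and the natural killer median was -0.10. With signals of at least 50 on both arrays there were 43 and 35 at 2-fold and 337 and 215 at 1.5-fold, the B cell precursor median was 0.28, the acinar median -1.23, and the motile cilia median turned to -0.0056. Quantile normalization gave 77 and 79 at 2-fold, median centring 65 and 88, and the level correction, chosen after seeing the data, 90 and 78. No paired analysis within the females was possible because each group has 1 array, and none over both sexes was run. No replicate could be left out for the same reason. Signal over background limits the dim genes, where a few units decide a 2-fold difference. Array and pool cannot be told apart, and neither can the treatment and the litters pooled.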
